A study of Mus musculus with 24 samples.

Results

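Programmed cell death removes a share of the cells made in the young retina, and the genes described here encode the mitochondrial route to it: the anti-apoptotic proteins Bcl2, Bcl2l1 (BCL-xL) and Mcl1, the pore-forming effectors Bax and Bak1, the BH3-only activators Bcl2l11 (BIM) and Bid, and the apoptosome proteins Apaf1 and Casp9. Members were all probe sets of the array whose annotated gene symbol was one of these 9 genes. There were 24 such probe sets of 22690 in the table, for 8 of the 9 genes (of 12393 genes with a probe set of their own), and Bax was not analysed here. Mcl1 had 6 probe sets, Bcl2l11 had 5, Bcl2l1 had 4, Bak1, Bid, Casp9 and Apaf1 had 2 each, and Bcl2 had 1. A gene's main probe set is its brightest over the arrays.

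In this route the anti-apoptotic proteins hold Bax and Bak1 in check at the outer mitochondrial membrane. BH3-only proteins relieve that block, the effectors open the membrane, and released cytochrome c assembles Apaf1 into the apoptosome, which activates the initiator caspase Casp9. Much of the route is controlled at the protein level, by cleavage, phosphorylation and turnover, so a transcript level is a measure of the supply of each component and not of death itself. In the mouse retina the first weeks after birth are a known period of neuronal death, and raised oxygen in pups of this age is a known way to make immature vessels regress.

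The arrays measured total RNA of retina from C57Bl/6 mice in 8 groups of 3 arrays. The hyperoxia groups were taken on postnatal day 7 after 12 hours, day 8 after 24 hours, day 10 after 72 hours and day 12 after 120 hours of hyperoxia, and room air (normoxia) groups were taken on the same 4 days. Age and length of exposure therefore run together, and their parts in any change within the hyperoxia series cannot be told apart. The labels give neither the oxygen concentration nor the number of animals behind an array. No label says that the 3 arrays of a group came from separate animals, so p-values measure the spread between these arrays, which may be technical.

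All values below are log2 of the deposited intensity after quantile normalisation, with values under a floor of 7.10 raised to it. A difference was called at an adjusted p under 0.05 (limma, Benjamini-Hochberg over the 15838 probe sets tested), and ± after a difference is its standard error. The filter on dim probe sets kept 21 of the 24, and the other 3 had a mean under the filter of 7.91. Those were Bcl2l1 1426050_at, at the floor on 7 arrays, Bak1 1425716_s_at, at the floor on 4, and Bid 1448560_at, at the floor on 14. Levels are not compared between probe sets, because each has its own affinity.

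The tissue label was checked against marker genes. The mean of 4 rod photoreceptor genes lay between 13.62 and 14.64 and that of 7 Müller glia genes between 11.89 and 12.99 over the 24 arrays. The mean of 7 lens genes spanned 7.10 to 13.82 over the same arrays, and the highest values were on room air day 12 replicate 3 (13.82) and hyperoxia day 12 replicate 3 (13.69). Log2 ratios of 5′ to 3′ control probe sets lay between -0.35 and -0.03 for Actb and between 0.16 and 0.41 for Gapdh. In the mean of the 4 days, 3 of 8 endothelial genes were lower in hyperoxia than in room air, with Cldn5 at -0.66 ± 0.10 (limma adjusted p = 0.00104).

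The promoters of the 3 member genes whose main probe sets were called lower on day 12 than on day 7, and of Casp2, the lowest of the other caspases in the same comparison, are shown because these genes were lower on day 12 together. Each line gives the 250 bases before the annotated start (RefSeq, GRCm38.p6), 5′ to 3′ on the gene's strand. Capitals mark a GC box (GGGCGG, either strand) or an E2F word (TTTCCCGC, TTTGGCGC, TTTCGCGC or TTTGCCGC, either strand), and the Casp2 E2F word overlaps its GC box. The windows are chr10:91082744-91082993 (minus strand) for Apaf1, chr4:141793362-141793611 (plus) for Casp9, chr3:95658471-95658720 (plus) for Mcl1 and chr6:42264735-42264984 (plus) for Casp2.
Apaf1: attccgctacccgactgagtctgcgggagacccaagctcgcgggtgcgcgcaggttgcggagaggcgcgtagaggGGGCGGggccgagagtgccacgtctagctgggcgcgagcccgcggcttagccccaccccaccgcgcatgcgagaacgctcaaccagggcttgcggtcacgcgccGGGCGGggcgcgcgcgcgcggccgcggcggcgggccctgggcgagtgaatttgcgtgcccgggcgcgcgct
Casp9: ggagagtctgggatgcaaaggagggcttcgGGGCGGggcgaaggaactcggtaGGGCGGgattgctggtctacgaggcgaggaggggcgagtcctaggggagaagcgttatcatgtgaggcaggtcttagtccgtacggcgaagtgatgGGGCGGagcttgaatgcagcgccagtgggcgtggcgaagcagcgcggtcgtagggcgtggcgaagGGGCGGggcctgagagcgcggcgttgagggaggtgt
Mcl1: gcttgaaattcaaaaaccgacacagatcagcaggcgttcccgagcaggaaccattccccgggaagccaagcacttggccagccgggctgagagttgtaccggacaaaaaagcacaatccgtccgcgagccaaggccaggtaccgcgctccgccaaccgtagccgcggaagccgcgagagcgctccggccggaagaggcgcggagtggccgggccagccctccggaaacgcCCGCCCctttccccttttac
Casp2: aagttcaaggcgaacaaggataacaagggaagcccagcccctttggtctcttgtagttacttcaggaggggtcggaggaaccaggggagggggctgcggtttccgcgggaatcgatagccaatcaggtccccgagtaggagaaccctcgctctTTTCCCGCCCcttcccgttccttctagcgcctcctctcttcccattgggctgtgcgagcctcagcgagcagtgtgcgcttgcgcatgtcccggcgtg

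Apaf1 had 2 GC boxes, Casp9 had 4, and Mcl1 and Casp2 had 1 each. A GC box was present in 32.7% of the 32851 windows of this length in the table, an E2F word in 1.86% and a TATAAA word (either strand) in 12.4%. Over the 8 genes with a probe set, which have 11 annotated windows, 7 windows held a GC box, 1 held an E2F word (a start of Bcl2l1) and 0 held TATAAA. Some genes have several windows. G and C made up 47.6% to 75.6% of the bases in these windows, against a median of 52.4% over all windows. The GC box counts were not adjusted for that. A match describes the letters in the window and nothing about a factor.

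**Figure D1:**
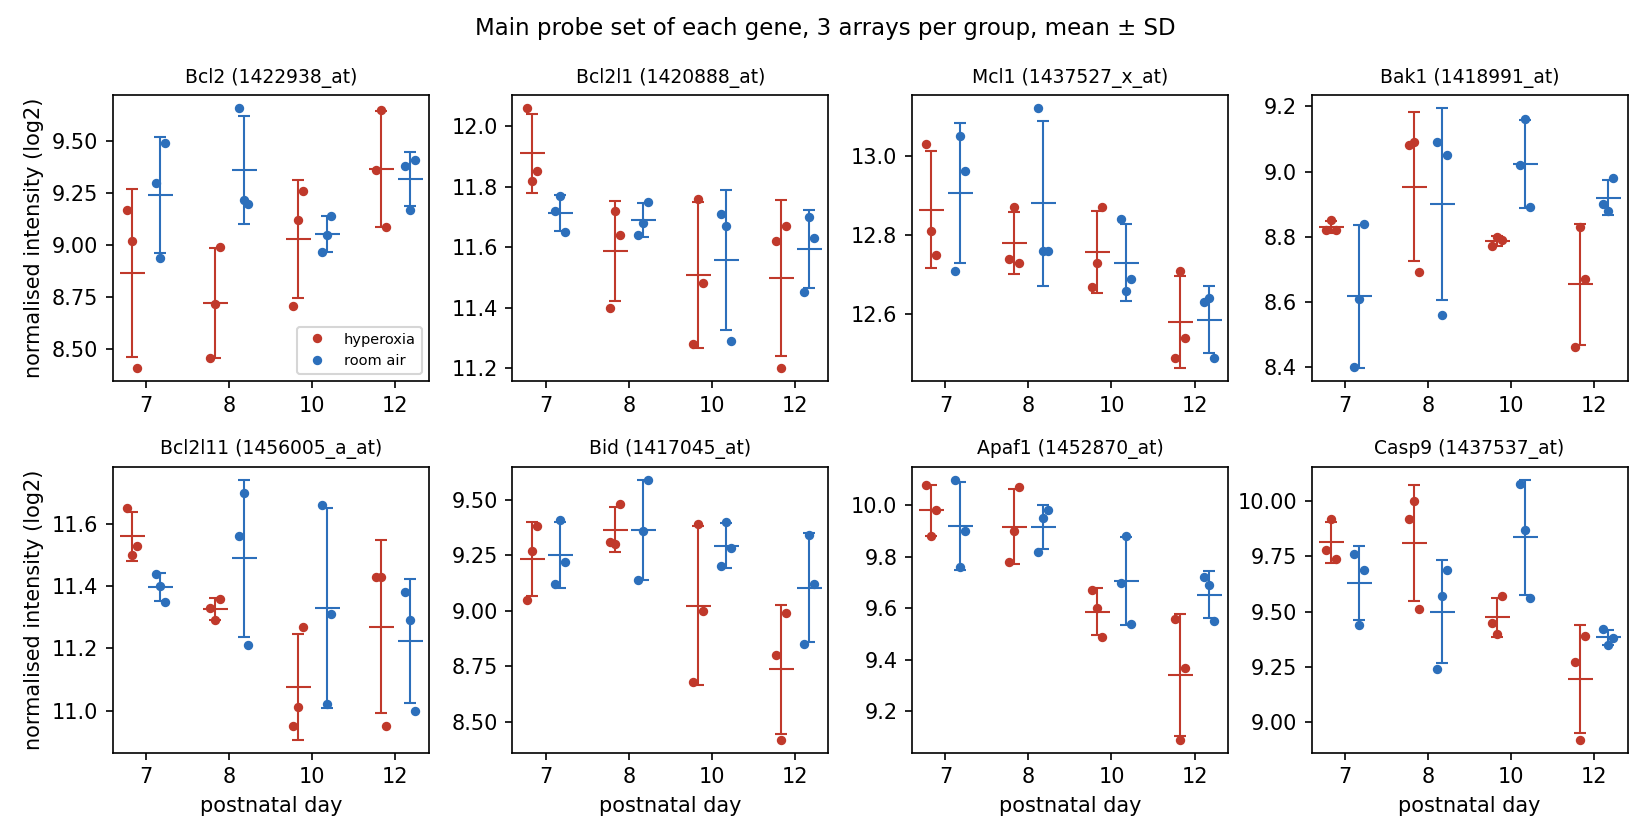
Normalised intensity (log2) of the main probe set of each of the 8 genes by postnatal day, with hyperoxia in red on the left of each pair and room air in blue on the right; points are arrays, bars are the mean ± SD of 3 arrays, and each panel has its own axis. Apaf1, Casp9 and Mcl1 are lowest on day 12 in both conditions, while the Bcl2 mean in hyperoxia was 9.37 on day 12 and 8.87 on day 7, with overlapping arrays and no call.

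Between day 12 and day 7, probe sets of Apaf1, Casp9 and Mcl1 fell. Over both conditions, 4 of the 21 tested probe sets were lower on day 12 than on day 7 and 0 were higher: the main probe sets of Apaf1 and Casp9, and 2 of the 6 of Mcl1. The background was high, since 23% of all 15838 probe sets tested were called in this comparison, and 11.5% of all 15838 were called lower. The test was for a difference in either direction, so 23% is the share to set beside 4 of 21 called. The 11.5% is the share for lower calls only, a direction seen in the calls themselves. The shares were not tested against each other, and the 4 are not read as a result about the members as a group. The 21 had a median difference of -0.26, against -0.03 over all 15838, and 17 of the 21 were negative. An unadjusted p under 0.05 was reached by 10 of the 21. The shares of all probe sets that were negative or reached that p are not given here, so these counts are not a result about the members. The 21 come from 8 genes and are not independent. The day 12 arrays all lay below the day 7 arrays for 4 of the 21, against 5.01% of all probe sets.

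Apaf1, the scaffold that cytochrome c assembles into the apoptosome, changed most. Its main probe set, 1452870_at, read 9.56, 9.09 and 9.37 on day 12 in hyperoxia, against 10.08, 9.88 and 9.98 on day 7 in hyperoxia. In room air it read 9.72, 9.69 and 9.55 on day 12, against 10.10, 9.76 and 9.90 on day 7. Every day 12 array lay below every day 7 array. The difference was -0.45 ± 0.09 over both conditions, 0.731 times the day 7 level (95% confidence interval -0.64 to -0.26, limma adjusted p = 0.000867).

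By condition, Apaf1 1452870_at fell by 0.64 ± 0.13 in hyperoxia (limma adjusted p = 0.00193), and in room air its difference was -0.27 ± 0.13 (adjusted p = 0.192), which was not called. The difference between those 2 values was itself tested, at -0.37 ± 0.18 (adjusted p = 0.792), and did not pass. Group means in hyperoxia were 9.98 ± 0.10 on day 7, 9.91 ± 0.15 on day 8, 9.59 ± 0.09 on day 10 and 9.34 ± 0.24 on day 12 (SD, n = 3 each). In room air the means were 9.92 ± 0.17, 9.92 ± 0.09, 9.70 ± 0.17 and 9.65 ± 0.09 on the same days (SD, n = 3 each). Days 7 and 8 differed by less than the spread in both conditions, and so did days 10 and 12 in room air. The second Apaf1 probe set, 1450223_at, differed by -0.30 ± 0.14 between day 12 and day 7 (limma adjusted p = 0.146), in the same direction but not called.

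Casp9, the initiator caspase that the apoptosome activates, fell to a similar extent. Its main probe set, 1437537_at, read 9.27, 8.92 and 9.39 on day 12 in hyperoxia, against 9.78, 9.92 and 9.74 on day 7 in hyperoxia. Room air values were 9.42, 9.35 and 9.38 on day 12, against 9.76, 9.44 and 9.69 on day 7. Again no day 12 array reached a day 7 array. The difference over both conditions was -0.44 ± 0.11, 0.740 times the day 7 level (limma adjusted p = 0.00682).

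Within hyperoxia the Casp9 main probe set fell by 0.62 ± 0.16 (limma adjusted p = 0.0118), and within room air the difference was -0.25 ± 0.16 (adjusted p = 0.345), which was not called. Without hyperoxia day 12 replicate 2, the lowest array at 8.92, the hyperoxia value was -0.49 ± 0.16 and not called (adjusted p = 0.0656). On all arrays, the change between day 12 and day 7 in hyperoxia, less that in room air, was -0.37 ± 0.22 (adjusted p = 0.830). The day 12 and day 10 means were apart by -0.37 ± 0.11 (adjusted p = 0.103), against 0.00 ± 0.11 between day 10 and day 8 and -0.07 ± 0.11 between day 8 and day 7, and none of these steps was called. The step of 0.00 averaged a lower mean on day 10 in hyperoxia and a higher one in room air. In hyperoxia the arrays read 9.92, 10.00 and 9.51 on day 8 and 9.45, 9.40 and 9.57 on day 10. In room air they read 9.24, 9.57 and 9.69 on day 8. The room air day 10 arrays, at 10.08, 9.87 and 9.56, were the highest room air group for this probe set. This step was not tested within each condition. The other probe set, 1426125_a_at, differed by -0.32 ± 0.19 between day 12 and day 7 (adjusted p = 0.234).

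Mcl1, a short-lived anti-apoptotic protein, had 2 probe sets that fell. The main one, 1437527_x_at, read 12.49, 12.71 and 12.54 on day 12 in hyperoxia, against 13.03, 12.81 and 12.75 on day 7, and 12.63, 12.64 and 12.49 on day 12 in room air, against 12.71, 13.05 and 12.96 on day 7. The groups did not overlap, though the highest day 12 array and the lowest day 7 array were both 12.71 at 2 decimals. Its difference was -0.30 ± 0.08 (limma adjusted p = 0.0124), and without the 2 arrays with the highest lens means it was -0.27 ± 0.10 and no longer called (adjusted p = 0.0641).

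Mcl1 1448503_at differed by the same amount, -0.30 ± 0.08 (limma adjusted p = 0.0120), and was the only member called within room air. It read 11.77, 11.75 and 12.01 on day 12 in room air, against 12.33, 12.13 and 12.41 on day 7, and it fell by 0.44 ± 0.12 (adjusted p = 0.0178). That call was lost without room air day 7 replicate 1 or 3 or day 12 replicate 1 or 2 (-0.42 to -0.38, adjusted p 0.0591 to 0.0937). In hyperoxia the same probe set read 11.95, 11.84 and 12.13 on day 12, against 12.08, 12.07 and 12.27 on day 7, and these arrays overlapped. The other 4 Mcl1 probe sets gave 0.02 ± 0.11, 0.02 ± 0.08, -0.26 ± 0.10 and -0.30 ± 0.23 over both conditions, none of them called (adjusted p between 0.0667 and 0.939). The 6 probe sets therefore do not give a single value for Mcl1.

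Bcl2, the founding anti-apoptotic member, was the one main probe set besides Bak1 with a positive value. It read 9.36, 9.65 and 9.09 on day 12 in hyperoxia, against 9.17, 9.02 and 8.41 on day 7, and 9.38, 9.17 and 9.41 on day 12 in room air, against 9.30, 8.94 and 9.49 on day 7. These arrays overlapped in both conditions. The difference of 0.29 ± 0.15 was not called (limma adjusted p = 0.173; 95% confidence interval -0.02 to 0.59).

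Bcl2l1, which encodes the survival factor BCL-xL, had a main probe set with -0.27 ± 0.10 (limma adjusted p = 0.0719), which was not called. Its hyperoxia means were 11.91 ± 0.13, 11.59 ± 0.17, 11.51 ± 0.24 and 11.49 ± 0.26 on days 7, 8, 10 and 12, and its room air means were 11.71 ± 0.06, 11.69 ± 0.06, 11.56 ± 0.23 and 11.60 ± 0.13 (SD, n = 3 each). The highest was the hyperoxia day 7 group. From day 8 on, neighbouring means in hyperoxia differed by less than their SDs, while in room air the gap between days 8 and 10 exceeded the SD of day 8 but not that of day 10. Its other tested probe sets gave -0.15 ± 0.12 and -0.26 ± 0.21.

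Bak1, the effector with a probe set tested here, differed by 0.06 ± 0.10 between day 12 and day 7 (limma adjusted p = 0.723). Its values ran in opposite directions by condition, at -0.18 ± 0.14 in hyperoxia and 0.30 ± 0.14 in room air. On day 12 it read 8.46, 8.83 and 8.67 in hyperoxia, against 8.90, 8.88 and 8.98 in room air, and the arrays did not overlap. The change between day 12 and day 7 in hyperoxia, less that in room air, was -0.48 ± 0.20 (limma adjusted p = 0.744) and was not called.

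Among the BH3-only genes, the 5 probe sets of Bcl2l11 lay between -0.27 and -0.10 on day 12 relative to day 7, with 0 called. The nearest to the threshold was 1435448_at, at -0.24 ± 0.09 (limma adjusted p = 0.0519), whose day 12 arrays all lay below its day 7 arrays: 10.64, 10.62 and 10.23 in hyperoxia and 10.53, 10.51 and 10.51 in room air on day 12, against 10.77, 10.71 and 10.71 in hyperoxia and 10.65, 10.95 and 10.71 in room air on day 7. The main probe set of Bcl2l11 gave -0.23 ± 0.11 (adjusted p = 0.159).

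Bid, the BH3-only protein that links death receptors to mitochondria, gave -0.32 ± 0.13 (limma adjusted p = 0.0717). In hyperoxia it read 8.80, 8.42 and 8.99 on day 12, against 9.05, 9.27 and 9.38 on day 7, with no overlap, a difference of -0.49 ± 0.18 (adjusted p = 0.0746). In room air it read 8.85, 9.34 and 9.12 on day 12, against 9.12, 9.41 and 9.22 on day 7, and those arrays overlapped. With the replicate number as a block the Bid difference in hyperoxia passed the threshold (limma adjusted p = 0.0378). That block covered all arrays, and a pairing by number was not established. Between days 12 and 7, deviations of same-numbered arrays had r of 0.37, 0.15 and 0.31 in hyperoxia. In room air r was -0.24, 0.13 and -0.09.

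**Figure D2:**
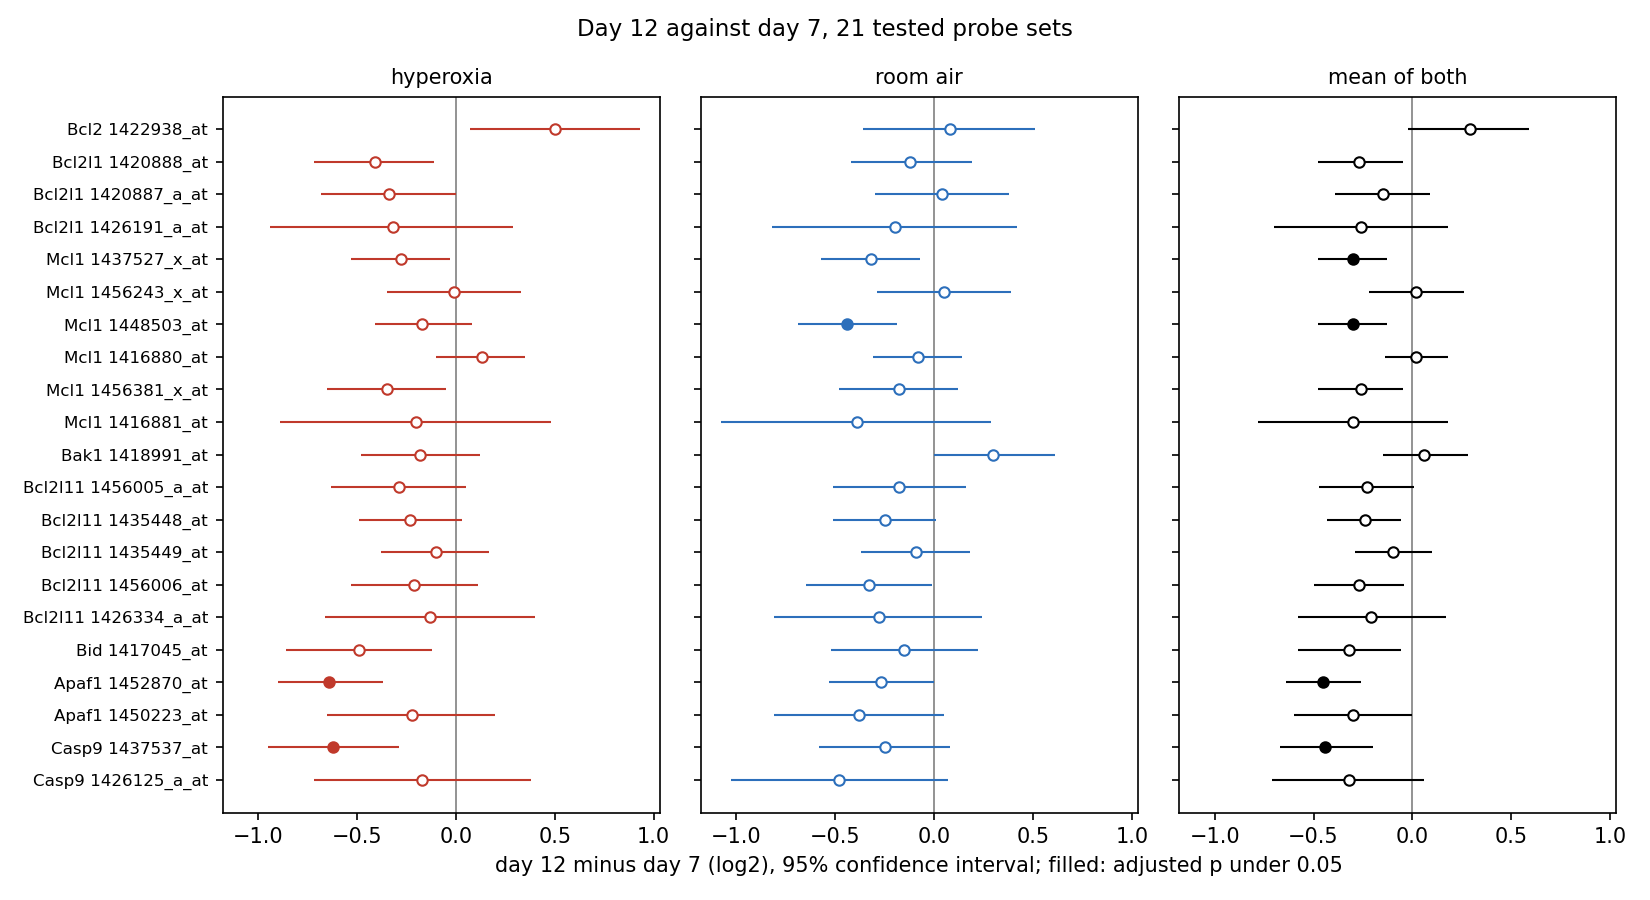
Day 12 minus day 7 (log2) for the 21 tested probe sets, with 95% confidence intervals, in hyperoxia, in room air and over both; filled points have an adjusted p under 0.05. Most points lie left of 0 in all panels (19 of 21 in hyperoxia, 17 of 21 in room air), and the filled ones belong to Apaf1, Casp9 and Mcl1.

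By condition, 2 of the 21 probe sets were called in hyperoxia (12.6% of all probe sets were) and 1 in room air (12.4% of all). With the replicate number as a block the hyperoxia count was 3. Fitted on only the arrays compared, no member was called in either condition, with Apaf1 at an adjusted p of 0.0739 and Casp9 at 0.0799 in hyperoxia (limma), and the same held with the pigment score added (0.0651 and 0.062). The interaction of age and oxygen called 0 of the 21 with limma (1 at an unadjusted p under 0.05, Bak1) and 0% of all probe sets. Stepwise, 0 of the 21 were called between days 8 and 7, between days 10 and 8 or between days 12 and 10, with 1, 2 and 2 at an unadjusted p under 0.05 (limma). Of all probe sets, 0%, 2.89% and 1.45% were called at those steps.

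Markers of several retinal cell types moved with the same comparison. Of 6 genes of dividing progenitors measured, 5 were lower on day 12 (Ccnd1 at -1.20 ± 0.11), and the median score of the list was 9.32 on day 12 and 10.57 on day 7 in hyperoxia, and 9.71 on day 12 and 10.57 on day 7 in room air. Of 6 pigment epithelium genes, 3 were higher on day 12 (Rpe65 at 1.69 ± 0.31), with the list median at 10.79 on day 12 and 9.50 on day 7 in hyperoxia, and 10.97 on day 12 and 10.48 on day 7 in room air. Of the Müller glia genes 5 of 7 were higher on day 12 (Aqp4 at 2.49 ± 0.14), of the ganglion cell genes 4 of 5 (Thy1 at 0.78 ± 0.10) and of the rod genes 2 of 4 (Gnat1 at 2.62 ± 0.21), with 0 lower in these lists. Of 5 bipolar cell genes 2 were higher (Cabp5 at 1.31 ± 0.14) and 1 lower, of 7 amacrine cell genes 3 were higher and 1 lower, and of 6 microglia and macrophage genes 1 was lower. The part of these cell types in the result was not tested. With each array's pigment score added to the model, the main probe sets of Apaf1 (-0.36 ± 0.11, adjusted p = 0.0432), Casp9 (-0.47 ± 0.15, adjusted p = 0.0399) and Mcl1 (-0.37 ± 0.11, adjusted p = 0.0275) stayed called and Mcl1 1448503_at did not (adjusted p = 0.162). In whole retina, fewer cells of a type and less RNA per cell cannot be told apart.

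Between hyperoxia and room air no member passed the test. On day 7, day 8, day 10 and day 12, 0 of the 21 probe sets were called between hyperoxia and room air by limma (0.0631%, 0.0821%, 0.0631% and 0.0126% of all probe sets), with 0, 2, 2 and 2 at an unadjusted p under 0.05. In the mean of the 4 days 0 were called and 3 had an unadjusted p under 0.05, against 0.499% called among all probe sets. The members' median differences were 0.03, -0.04, -0.03 and -0.03 on the 4 days and -0.01 in their mean. The median standard error was 0.16 on a single day and 0.08 in the mean of the days, and the 95% intervals show what each value still allows. The arrays of hyperoxia and room air did not overlap for 3, 2, 4 and 3 of the 21 on the 4 days, against 7.05%, 9.96%, 21.5% and 11.7% of all probe sets. A test for any difference of the hyperoxia effect among the days called 0 of the 21 with limma (2 at an unadjusted p under 0.05, the Casp9 main probe set and Bcl2l11 1456006_at) and 0% of all.

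**Figure D3:**
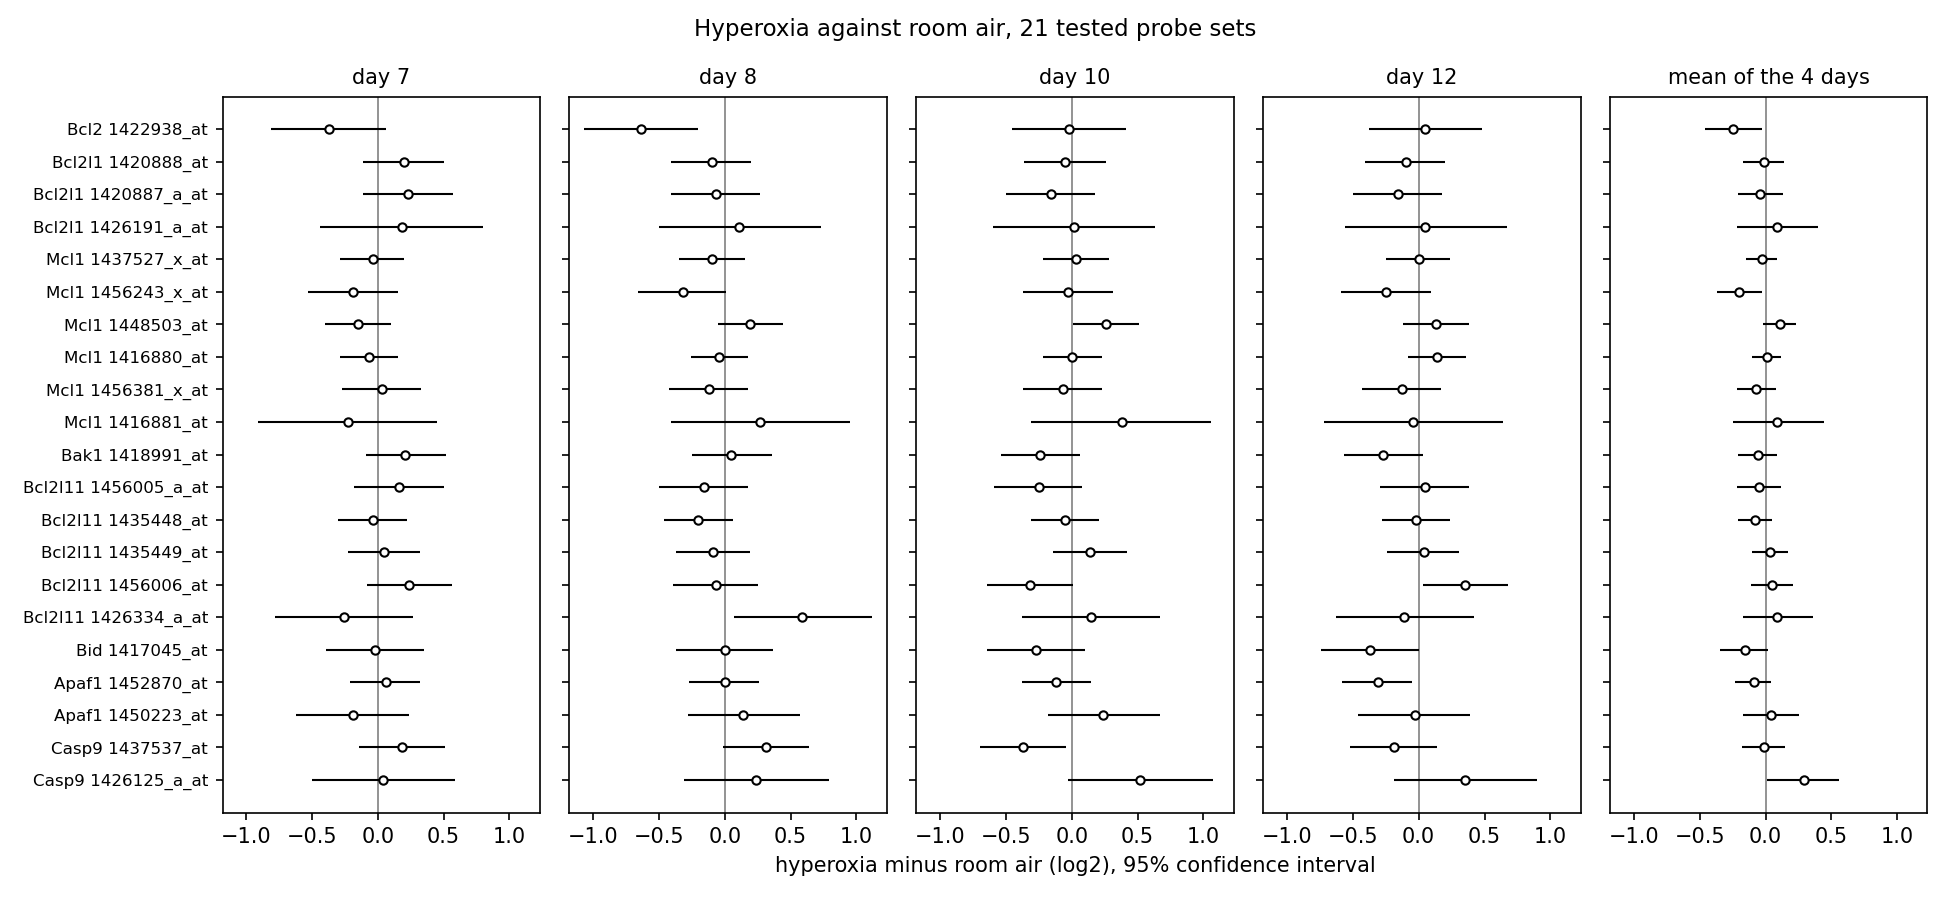
Hyperoxia minus room air (log2) for the 21 tested probe sets on each day and in the mean of the 4 days, with 95% confidence intervals. All points are drawn open whatever their p, and none had an adjusted p under 0.05. The widest departures are Bcl2 on day 8 (-0.64) and Bcl2l11 1426334_a_at on day 8 (0.59).

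On day 7 the main Bcl2l1 probe set read 12.06, 11.82 and 11.85 in hyperoxia, against 11.72, 11.77 and 11.65 in room air. The hyperoxia arrays were all above the room air arrays, but the difference of 0.20 ± 0.15 was not called (limma adjusted p = 1).

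Bcl2 had the lowest value of any member on any day. On day 8 it read 8.46, 8.72 and 8.99 in hyperoxia, against 9.66, 9.22 and 9.20 in room air, and the arrays did not overlap. The difference was -0.64 ± 0.21 (95% confidence interval -1.07 to -0.20, limma adjusted p = 0.884), so it did not pass over the whole array. On day 7 it was -0.37 ± 0.21, on day 10 -0.02 ± 0.21 and on day 12 0.05 ± 0.21, and in the mean of the days -0.25 ± 0.10 (adjusted p = 0.493). The mean of the lens genes on day 8 was 7.26 to 8.71 on the hyperoxia arrays and 8.49 to 12.79 on the room air arrays. These ranges overlap, and the part of the lens genes in the Bcl2 value was not tested.

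The Casp9 probe sets disagreed under hyperoxia. On day 10 the main one read 9.45, 9.40 and 9.57 in hyperoxia, against 10.08, 9.87 and 9.56 in room air, a difference of -0.37 ± 0.16 (limma adjusted p = 0.415). On the same arrays 1426125_a_at read 9.76, 9.52 and 9.90 in hyperoxia, against 8.85, 9.47 and 9.31 in room air, a difference of 0.52. Neither was called, and they have opposite signs.

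On day 12 the Apaf1 main probe set was at -0.31 ± 0.13 in hyperoxia relative to room air (limma adjusted p = 0.504), from the arrays given above, which overlapped. On day 7 it was 0.06. Of the BH3-only genes, Bcl2l11 1426334_a_at gave 0.59 ± 0.25 on day 8 (adjusted p = 0.964), with 8.75, 8.25 and 8.29 in hyperoxia, against 7.30, 8.21 and 8.00 in room air, where the low room air value of 7.30 was replicate 1. Bid stood at -0.16 ± 0.09 in the mean of the days (adjusted p = 0.630). All 8 main probe sets had a negative mean difference, between -0.25 and -0.01, but over the 21 tested probe sets 12 were negative and 9 positive.

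Probe sets of a gene often did not follow each other. Over the 24 arrays, Pearson's r between pairs was -0.36 to 0.78 for the 15 pairs of Mcl1 (median 0.01), -0.35 to 0.57 for the 10 pairs of Bcl2l11, 0.15 to 0.76 for the 3 pairs of Bcl2l1, 0.42 for Apaf1 and 0.04 for Casp9. These are descriptions over arrays that share groups. Each gene is therefore given by its probe sets and not by an average.

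The pathway around these genes was counted by the main probe set of each gene, for 44 measured genes in 7 lists. Between day 12 and day 7, over both conditions, 12 of the 44 were called, 5 higher and 7 lower (limma), and the median of the 44 was 0.02. Counted in the same way, 25.3% of all 9266 genes were called. Between hyperoxia and room air, in the mean of the 4 days, 0 of the 44 were called (3 at an unadjusted p under 0.05, limma), against 0.55% of all genes.

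The other BCL2 relatives moved both ways with age. Of 8 measured, 1 rose and 1 fell. Bcl2l2, which encodes the anti-apoptotic BCL-w, rose by 0.72 ± 0.14 on its main probe set (limma adjusted p = 0.000617), with 11.38, 12.04 and 11.94 on day 12 in hyperoxia, against 10.84, 11.09 and 11.08 on day 7, and 11.55, 12.18 and 11.64 on day 12 in room air, against 10.87, 11.54 and 10.99 on day 7. Its other probe sets gave 0.07 ± 0.20 and 0.50 ± 0.26 and were not called. Bcl2l13 was at -0.32 ± 0.10 (adjusted p = 0.029), and the BH3-only genes Bik (-0.55 ± 0.22), Hrk (-0.31 ± 0.16) and Bbc3 (-0.12 ± 0.14) were not called.

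Of the other caspases, 3 were measured and 2 fell. Casp2, an initiator caspase, read 10.81, 11.03 and 10.63 on day 12 in hyperoxia, against 11.59, 11.41 and 11.49 on day 7. In room air it read 10.94, 10.82 and 10.70 on day 12, against 11.39, 11.59 and 11.48 on day 7. Its groups did not overlap, and it fell by 0.67 ± 0.07 (limma adjusted p = 1.15e-06). The executioner Casp6 fell by 0.57 ± 0.16 (adjusted p = 0.016), and Casp8, of the death receptor route, was at 0.09 ± 0.23.

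Downstream of the mitochondria, 3 of 11 genes were called. Xiap, an inhibitor that binds Casp9, rose by 0.49 ± 0.08 (limma adjusted p = 0.000101), with 13.28, 12.98 and 13.20 on day 12 in hyperoxia, against 12.57, 12.53 and 12.63 on day 7, and 12.92, 13.22 and 13.32 on day 12 in room air, against 12.82, 12.79 and 12.60 on day 7. The other 3 Xiap probe sets gave 0.33 ± 0.48, 0.82 ± 0.56 and 0.60 ± 0.26 and were not called. Endog, a mitochondrial nuclease, rose by 0.58 ± 0.14 (adjusted p = 0.00394). Birc5, an inhibitor family member that is also a mitosis protein, fell by 1.10 ± 0.17 (adjusted p = 9.29e-05). Cytochrome c itself (Cycs) was at 0.05 ± 0.12 on its main probe set, while another of its probe sets was at 0.23 ± 0.08 (adjusted p = 0.0439). Diablo, an antagonist of these inhibitors, was at 0.14 ± 0.08.

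**Figure D4:**
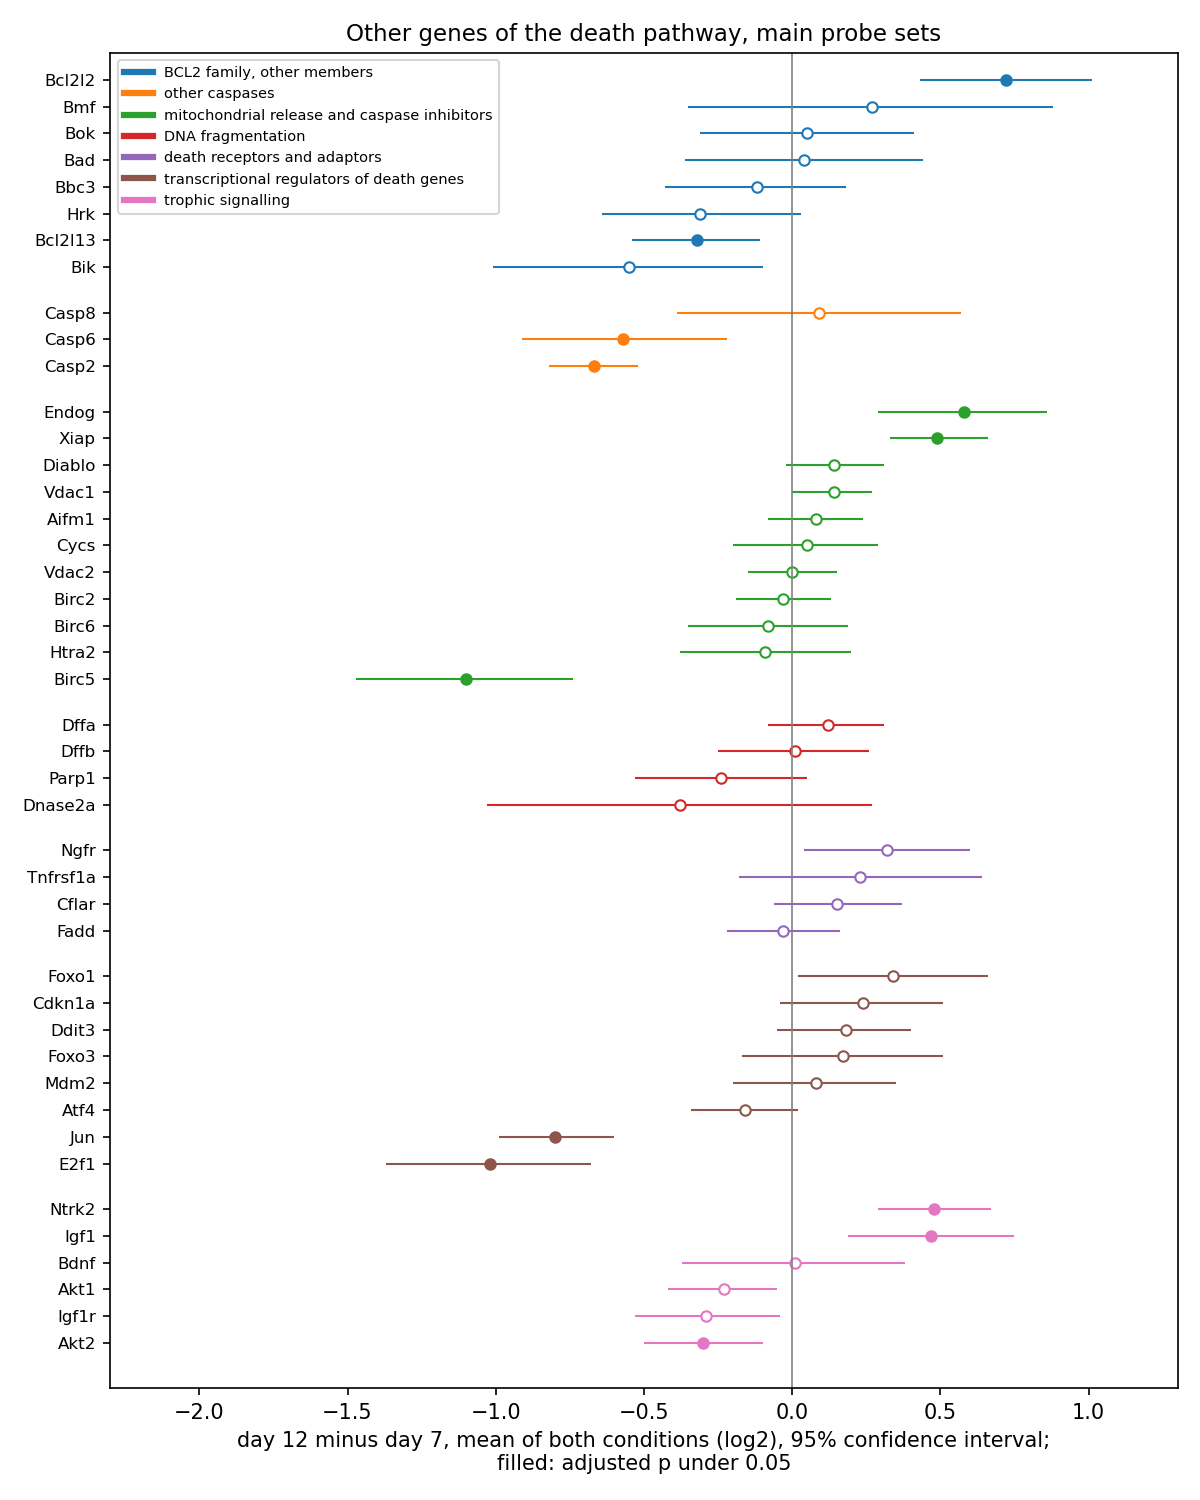
Day 12 minus day 7 over both conditions (log2), with 95% confidence intervals, for the main probe sets of 44 other genes of the death pathway, coloured by list; filled points have an adjusted p under 0.05. Bcl2l2, Xiap, Endog, Ntrk2 and Igf1 lie to the right and Casp2, Casp6, Birc5, E2f1, Jun, Bcl2l13 and Akt2 to the left of 0.

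Of the transcriptional regulators of death genes, 2 of 8 fell. Jun, a stress-responsive activator, fell by 0.80 ± 0.09 (limma adjusted p = 3.32e-06), and E2f1, a cell cycle factor that in mouse cells also activates Apaf1, fell by 1.02 ± 0.16 (adjusted p = 0.00011). Of the trophic signalling genes, 3 of 6 were called: Ntrk2, the BDNF receptor, rose by 0.48 ± 0.09 (adjusted p = 0.000601), Igf1 rose by 0.47 ± 0.13 (adjusted p = 0.0149) on the brightest of its 3 probe sets, and Akt2, a survival kinase, fell by 0.30 ± 0.09 (adjusted p = 0.028). The death receptor list (4 measured) and the DNA fragmentation list (4 measured) had 0 called by main probe set, with 1 and 0 at an unadjusted p under 0.05. Ngfr, a death receptor, was at 0.32 ± 0.13 (adjusted p = 0.0954), and of 2 Dffb probe sets the second was at -0.32 ± 0.10 (adjusted p = 0.0292). With the pigment score added to the model, Bcl2l2, Endog and Ntrk2 were no longer called (adjusted p = 0.0612, 0.14 and 0.0588), and of 35 alternatives Bcl2l13 and Akt2 lost their call under 7 each and Casp6 and Igf1 under 2 each.

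The genes whose level over the 24 arrays was most like that of the called members, by Pearson's r and over different genes, were Gadd45g (0.914), Clic4 (0.903) and Rhno1 (0.895) for Apaf1, Cpsf3 (0.848), Pus3 (0.842) and Kars (0.838) for Casp9, and Ncan (0.848), Mmp14 (0.840) and Gamt (0.833) for Mcl1. The arrays share days and conditions, so these values describe the arrays only.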

How the data were processed

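Members, lists and comparisons were chosen with earlier results of these data known. The authors deposited intensity values on a linear scale, 1 per probe set and array; the software behind them is not given in the sources used here. Trimmed means (2% off each end) were 1500.35 to 1500.4 on every array. With 3 arrays a group, their number sets the precision.

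The 64 control probe sets were dropped, arrays were quantile normalised, intensities below 137.4 (20th percentile) were set to it, and log2 was taken, which understates differences near that floor. A filter at the 30th percentile of mean log2 left 15838 of 22690 probe sets. limma 3.58.1 (R 4.3.3) fitted 8 group means to the 24 arrays (16 residual degrees of freedom). Symbols came from the platform annotation (1 symbol for 20380 probe sets, several for 691, none for 1555). All member probe sets are named. For each pathway list a rule picked up to 6 called genes with the lowest p, and up to 3 more where fewer were called. The text does not follow that rule throughout. Several picked genes are left out, among them Akt1. Between day 12 and day 7 Akt1 was called in room air (-0.43 ± 0.12, limma adjusted p = 0.027) but not over both conditions (-0.23 ± 0.09, adjusted p = 0.0621). Cycs, Diablo and Dffb are named although the rule did not pick them. Further probe sets of named genes were added with their values already known. The steps were tested on simulated data.

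Same-numbered hyperoxia and room air arrays deviated together (r over 0.1) in 5 of 12 pairs, and in all 3 on day 12 (0.45, 0.23 and 0.39). Between days 12 and 7 the 3 hyperoxia pairs did (0.37, 0.15 and 0.31) and the room air pairs did not all do so (-0.24, 0.13 and -0.09). No label says that the numbers pair arrays. In 5 of the 12 pairs the same-numbered array was the best match. A pairing was therefore not established, and the replicate block is given only as an alternative fit. Alternatives were scaling, filter, floor, prior, replicate block, 1 probe set per gene, only the arrays compared and leaving out each array; leaving out the 2 arrays with the highest lens means and a pigment covariate were added after seeing the data.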

Additional observations from a re-analysis of the deposited data

How the results depend on the processing

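Of 9650 recomputed values, 9569 were scored as the same. These were called values that stayed called in their direction, and uncalled values that stayed uncalled and moved by less than the spread. Further, 34 called values fell below the threshold, 31 uncalled values passed it, 16 uncalled values moved otherwise, and 0 called values reversed. A loss or reversal could be scored only for values called in the main fit, so the total of 9650 does not measure how stable the calls were. The Apaf1 and Casp9 main probe sets stayed called between day 12 and day 7 over both conditions in all 35 alternatives (adjusted p 0.00028 to 0.0432 and 0.00332 to 0.0399). Over both conditions the count of 4 ranged from 4 to 5 on leaving out 1 array and from 3 to 6 otherwise. In room air the count of 1 was 0 with 1 probe set per gene, with only the arrays compared and with the pigment covariate, and 0 to 1 on leaving out 1 array: 0 without room air day 7 replicate 3, day 12 replicate 1 or day 12 replicate 2. In hyperoxia the count of 2 was 0 with only the arrays compared and with the pigment covariate, and 1 to 3 on leaving out 1 array, with 1 without hyperoxia day 12 replicate 2. The cause was not tested. All other comparisons had 0 members called throughout.

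With the replicate number as a block the count was 6 over both conditions, 3 in hyperoxia and 1 in room air. The added calls over both conditions were Bid and Bcl2l11 1435448_at (limma adjusted p = 0.0379 and 0.0475). On day 12 between hyperoxia and room air it was 0, and it changed no other count of members.

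Counts over all probe sets depended more on the settings. Between hyperoxia and room air they ranged from 0 to 18 on day 7, 0 to 17 on day 8, 0 to 34 on day 10, 0 to 6 on day 12 and 55 to 99 in the mean of the days. Between day 12 and day 7 they ranged from 923 to 2287 in room air, 598 to 2361 in hyperoxia and 2003 to 3988 over both.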

Other observations

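Deviations from the group means were correlated over the 24 arrays for the 210 pairs of the 21 tested probe sets, as a description without a test. Mcl1 1416881_at went with Mcl1 1448503_at (Pearson's r = 0.83), with Apaf1 1450223_at and Bcl2l11 1426334_a_at (0.81 each) and with Bcl2l1 1426191_a_at (0.75), but against the main Mcl1 probe set 1437527_x_at (-0.71). The 30 pairs of the same gene had a median r of 0.03 and a range of -0.71 to 0.83, and the 180 pairs of different genes had a median of -0.04 and a range of -0.68 to 0.81. On room air day 10 replicate 1, Mcl1 1416881_at read 9.66, against 10.42 and 10.85 on the other arrays of that group, and on room air day 12 replicate 1 Casp9 1426125_a_at read 8.47, against 9.66 and 9.47.

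The dim Bid probe set 1448560_at, which was under the filter and not tested, read 8.39, 8.13 and 8.25 on day 8 in hyperoxia, against the floor of 7.10 on 2 arrays and 8.17 on the third in room air. On day 12 it was at the floor on all 6 arrays.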
